A study of Xenopus laevis with 25 samples.

Results

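The 10 genes described here act in or mark the early heart lineage: the transcription factors nkx2-5, tbx5, tbx20, gata4, gata5, gata6, hand1 and isl1, the chromatin remodelling subunit smarcd3 and the myosin light chain myl4. They were chosen by name, by matching gene symbols in the authors' deposited comparison table for 12 hours post fertilization (hpf). The matching used no measured value, but the genes were chosen with earlier results of these data known. All 10 symbols were found, as 12 of the 22891 transcripts in the files, because nkx2-5 and tbx5 have 2 transcripts each. All 12 passed the filter on low counts, which kept 16967 transcripts.

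In vertebrates the heart arises from paired fields of anterior lateral mesoderm that are set apart during gastrulation and neurulation and later meet at the ventral midline to form a tube. Nkx2-5, the Gata4/5/6 zinc-finger factors and the T-box factors Tbx5 and Tbx20 bind together at cardiac enhancers, and in the mouse smarcd3 (BAF60c) brings the BAF chromatin remodelling complex to these factors. Genes of the contractile apparatus such as myl4 come on as muscle cells differentiate. RNF20 is the ubiquitin ligase that places a single ubiquitin on histone H2B, a mark of transcribed genes, and the study's title links it to the heart by way of cilia motility.

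Poly(A)-selected RNA of Xenopus embryos was sequenced at 12, 13, 14, 15 and 16 hpf in 2 arms. Wild-type embryos gave 2 libraries per hour (10 in all), and embryos with an RNF20 morpholino, an antisense oligomer that blocks translation or splicing of its target, gave 3 per hour (15 in all). The labels give morpholino injection as the treatment of every sample, wild type included, and name no control morpholino, dose or number of embryos per library. Nothing in them says that replicates came from separate clutches, so p-values measure the spread between these libraries, which may be technical. RNA came from the embryo as a whole, with other tissues that may express these genes, skeletal muscle among them. Fewer heart cells, less RNA per heart cell and a change in those tissues cannot be told apart. The labels name Xenopus laevis while the transcript identifiers carry the Xenopus tropicalis prefix. In the RefSeq table of Xenopus laevis v10.1, 7 of the 10 genes have both an L and an S copy, whose reads these counts may merge. How well the reads of each gene matched these transcripts was not tested, so levels of different genes may not compare.

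Library totals ran from 12757711 to 36150636 estimated counts. The targeted transcript, rnf20, ran from 38.3 to 79.3 CPM (counts scaled to the library total; median 62.9) in wild type and from 54.3 to 102 CPM (median 72.2) in the morpholino arm, and since a morpholino need not lower the RNA of its target, this checks neither the labels nor the knockdown. Morpholino replicate 3 stood apart: its TMM scaling factors were 0.673 to 0.900, against 0.945 to 1.14 in the other 20 libraries. At 16 hpf its correlation was 0.867 with morpholino replicate 1 and 0.882 with replicate 2, and that of replicates 1 and 2 was 0.981 (log2 CPM across genes, which are not independent replicates). Libraries with the same number also deviated together from hour to hour within an arm, so the 10 and 15 libraries behave in part as 2 and 3 series.

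In wild type the 10 genes spanned a wide range of abundance. On the length-corrected TPM scale (over all 10 wild-type libraries, transcripts summed per gene), hand1, a bHLH factor of lateral mesoderm, was highest at 159 ± 21.1 TPM (SD, n = 10). It was followed by gata6 at 92.0 ± 20.4, gata4 at 50.3 ± 7.85, gata5 at 43.5 ± 3.56, isl1 at 35.5 ± 2.34, nkx2-5 at 31.9 ± 5.38, myl4 at 28.4 ± 37.9 and tbx20 at 16.97 ± 5.78 TPM. The lowest were smarcd3 at 3.47 ± 2.86 and tbx5 at 0.905 ± 0.415 TPM. The ranges of neighbours in this order overlapped except between gata6 and gata4 and between tbx20 and smarcd3. The large SD of myl4 came with its rise over the 5 hours, from 1.34 TPM in the lowest library to 121 TPM in the highest.

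Across the 5 hours, 4 of the 10 genes were lower in the morpholino arm: nkx2-5, tbx5, smarcd3 and myl4. The average of the 5 hourly log2 differences was tested by edgeR's quasi-likelihood test, with Benjamini-Hochberg adjustment over all 16967 transcripts, and calls were made at an adjusted p under 0.05. Of the 12 transcripts 4 were called lower and 0 higher, where 13.1% of all transcripts were called lower and 13.9% higher. The other 6 genes, tbx20, gata4, gata5, gata6, hand1 and isl1, were not called. The median log2 difference of the 12 transcripts was -0.41, and that of all transcripts was -0.0029.

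These adjusted p-values count each library as independent. With the libraries of each arm and replicate number averaged into 2 wild-type and 3 morpholino series, limma called 0 of the 12 transcripts and 0% of all 16967, while 2259 of all transcripts had an unadjusted p under 0.05. In those series means 7 of the 12 transcripts had all 3 morpholino series below both wild-type series, against 26.5% of all transcripts. They were the main nkx2-5 transcript, both tbx5 transcripts, tbx20, hand1, smarcd3 and myl4. The 2 tbx5 transcripts divide the same few reads and are not separate measurements, so the 7 hold tbx5 more than once. An exact permutation test of 2 series against 3 cannot give a p below 0.1.

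**Figure D1:**
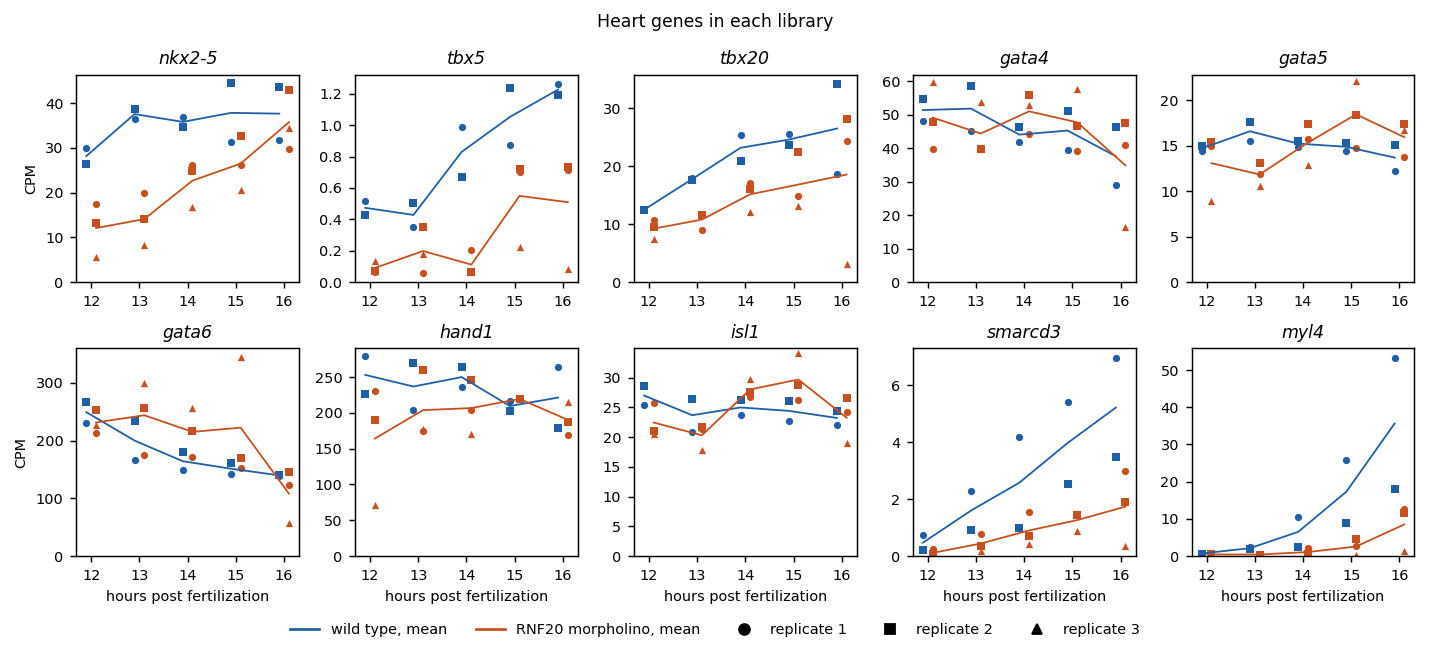
CPM (vertical axes from 0) of each of the 10 genes against hours post fertilization, with 1 point per library (blue, 2 wild-type libraries per hour; orange, 3 morpholino libraries per hour; marker shape, replicate number) and lines through the group means. The tbx5 values sum its 2 transcripts and nkx2-5 shows its main transcript. The orange points of myl4 lie below the blue at all 5 hours, and those of nkx2-5 at 12, 13 and 14 hpf. Of all tested transcripts 17.5% to 26.2% are so placed at a single hour.

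Nkx2-5 is the homeodomain factor that marks the early heart field of vertebrates. Its main transcript, ENSXETT00000060367.1, stood at 29.9 and 26.5 CPM in the 2 wild-type libraries at 12 hpf and at 17.5, 13.1 and 5.57 CPM in the 3 morpholino libraries. At 13 hpf the values were 36.5 and 38.6 against 19.8, 14.2 and 8.26 CPM, and at 14 hpf 36.9 and 34.7 against 26.3, 24.9 and 16.9 CPM. All morpholino libraries lay below both wild-type libraries at these 3 hours, with replicate 3 lowest each time. Of all tested transcripts 17.5%, 26.2% and 20.3% were so placed at 12, 13 and 14 hpf.

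At 15 hpf nkx2-5 read 31.2 and 44.5 CPM in wild type against 26.1, 32.7 and 20.7 CPM. At 16 hpf it read 31.8 and 43.5 against 29.8, 43.0 and 34.4 CPM. The arms overlapped at both hours. The log2 difference narrowed from -1.22 ± 0.38 (SE) at 12 hpf and -1.42 ± 0.38 at 13 hpf to -0.66, -0.51 and -0.07 at 14, 15 and 16 hpf. The average was -0.78 ± 0.17 (SE, edgeR adjusted p = 0.00417), which is 1.71-fold lower. The second transcript, ENSXETT00000027831.2, was at 0 in 7 of 10 wild-type and 10 of 15 morpholino libraries, and no fold change is given for it.

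Tbx5, a T-box factor of the heart and forelimb fields, was the scarcest of the 10. The counting divided its reads evenly between its 2 transcripts in 21 libraries (within 0.01 counts) and put all on 1 of them in 4, so the 2 transcripts are not separate measurements, and the sum is given here. The sum came to 10 and 8 counts in wild type at 12 hpf against 1, 1 and 2 in the morpholino arm, and to 6 and 11 against 1, 5 and 3 at 13 hpf. At 14 hpf it was 14 and 11 against 4, 1 and 1 counts, at 15 hpf 22 and 28 against 16, 16 and 7, and at 16 hpf 31 and 21 against 13, 16 and 1. In these raw counts each morpholino value was below both wild-type values at every hour.

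In CPM the tbx5 sum ran from 0.350 to 1.26 (median 0.771) over the 10 wild-type libraries and from 0.0606 to 0.732 (median 0.182) over the 15 morpholino libraries. The arms did not overlap at 4 of the 5 hours. At 13 hpf the highest morpholino library, at 0.352 CPM, just exceeded the lowest wild-type one, at 0.350. Of all tested transcripts 17.5% to 26.2% had all morpholino libraries lower at a single hour. The average log2 difference of the sum was -1.67 ± 0.32 (SE, edgeR adjusted p = 0.0014), a 3.18-fold lower level. Of the morpholino libraries 8 of 15 held 3 counts or fewer, so the size of this difference rests on few reads. The transcript fit gave -2.20 ± 0.54 (adjusted p = 0.00824) for ENSXETT00000061027.1, and in that fit split values of 0.5 counts were rounded to 0.

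Smarcd3, the heart and somite subunit of the BAF complex in the mouse, was at low levels in both arms. At 12 hpf it measured 0.723 and 0.213 CPM in wild type and 0.262, 0.0698 and 0 CPM in the morpholino arm. The 0 allows up to 0.179 CPM (3 counts over the library total without TMM scaling, counting error only). At 13 hpf the values were 2.28 and 0.921 against 0.786, 0.351 and 0.180 CPM, and at 14 hpf 4.17 and 0.978 against 1.54, 0.719 and 0.430. Wild-type replicate 1 was above replicate 2 at every hour, 1.99 to 4.26 times, a spread within one arm of the same order as the difference between the arms.

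At 15 hpf smarcd3 reached 5.41 and 2.53 CPM against 1.45, 1.44 and 0.891, and at 16 hpf 6.94 and 3.48 against 2.98, 1.89 and 0.339 CPM. The arms did not overlap at 13, 15 and 16 hpf, where 26.2%, 21.6% and 19.0% of all tested transcripts were also lower without overlap. The average log2 difference was -1.72 ± 0.42 (SE, edgeR adjusted p = 0.00793), or 3.28-fold lower, and the 5 hourly values lay between -2.01 and -1.50. Single libraries moved them: the 12 hpf value was -0.90 when wild-type replicate 1 was omitted and -3.54 when morpholino replicate 1 was, and the 14 hpf value was -0.12 when wild-type replicate 1 was. Over all 5 hours the value without 1 library ran from -3.54 to -0.12.

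Myl4, the myosin light chain of embryonic and atrial muscle in mammals, had the largest fitted average difference of the 10 genes, with tbx5 taken as the sum. It began at 0.723 and 0.640 CPM in wild type at 12 hpf against 0.458, 0.559 and 0.265 CPM, and stood at 2.40 and 1.84 against 0.544, 0.281 and 0.419 at 13 hpf. At 14 hpf it measured 10.6 and 2.38 against 2.27, 0.654 and 0.307 CPM. The morpholino libraries were the lower at each of these hours, but at 14 hpf the highest morpholino value was close to the lower wild-type value.

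By 15 hpf myl4 was at 25.7 and 8.91 CPM against 2.78, 4.54 and 0.350, and by 16 hpf at 53.2 and 18.1 against 12.6, 11.4 and 1.44 CPM. The arms were apart at all 5 hours, where 17.5% to 26.2% of all tested transcripts were lower without overlap at a single hour. The 2 wild-type libraries themselves differed 4.44-fold, 2.89-fold and 2.93-fold at 14, 15 and 16 hpf, replicate 1 being higher. The average log2 difference was -2.08 ± 0.44 (SE, edgeR adjusted p = 0.00372), 4.22-fold lower, and the hourly values ran from -0.67 at 12 hpf to -2.77 at 15 hpf. Without wild-type replicate 1 they were -1.12, -1.81 and -1.08 at 14, 15 and 16 hpf, and leaving out other single libraries took them as low as -3.74, -3.48 and -2.64.

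Tbx20, a T-box factor of the heart fields and of hindbrain motor neurons, had all its morpholino values below both wild-type values at 12 to 15 hpf but was not called. It measured 12.5 and 12.4 CPM against 10.7, 9.57 and 7.36 at 12 hpf, and 17.99 and 17.6 against 9.004, 11.6 and 11.7 CPM at 13 hpf. At 14 hpf the values were 25.4 and 21.0 against 17.1, 16.2 and 12.2 CPM, at 15 hpf 25.5 and 23.7 against 14.9, 22.5 and 13.2, and at 16 hpf 18.7 and 34.3 against 24.3, 28.2 and 3.13 CPM. At single hours from 12 to 15 hpf 17.5% to 26.2% of all tested transcripts had all morpholino libraries below both wild-type ones. Replicate 3 at 16 hpf was far below every other library. The average log2 difference was -0.56 ± 0.23 (SE, edgeR adjusted p = 0.0746). It was called without that library (-0.46, adjusted p = 0.00688), without morpholino replicate 2 at 16 hpf (-0.65, adjusted p = 0.0401) and without all of morpholino replicate 3 (-0.39, adjusted p = 0.0158). It was also called with a replicate block per arm (-0.60, adjusted p = 0.0341) and by DESeq2 (-0.56, adjusted p = 0.0494). That block called 7305 of all 16967 transcripts, where the main fit called 4581. Tbx20 was not called in the series means (-0.65, limma adjusted p = 0.378). Nor was it called by edgeR beside younger wild type, at -0.33 with a lag of 1 hour (adjusted p = 0.457). With a lag of 2 hours it was at -0.04 (adjusted p = 0.996). Leaving out 1 library gave values from -0.65 to -0.46.

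The Gata factors, which act in both heart mesoderm and endoderm, were not called on average. Gata4 ran from 28.9 to 58.5 CPM (median 46.2) in wild type and from 16.3 to 59.8 CPM (median 46.5) in the morpholino arm, with a log2 difference of -0.02 (95% interval -0.33 to 0.29). Gata5 ran from 12.3 to 17.7 CPM (median 15.1) against 8.89 to 22.2 (median 15.0), with a difference of -0.02 (-0.24 to 0.19). Gata6 ran from 139 to 267 CPM (median 164) against 57.0 to 345 (median 213), with a difference of 0.15 (-0.18 to 0.49). Morpholino replicate 3 held both the lowest and the highest gata6 value, 57.0 CPM at 16 hpf and 345 CPM at 15 hpf.

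Hand1 ran from 178 to 280 CPM (median 232) in wild type and from 71.8 to 259 CPM (median 203) in the morpholino arm. Its log2 difference was -0.25 (95% interval -0.56 to 0.05, edgeR adjusted p = 0.201). Isl1, a LIM homeodomain factor of second heart field progenitors and of sensory and motor neurons, ran from 20.9 to 28.5 CPM (median 24.9) against 17.8 to 34.1 (median 25.8). Its difference of -0.01 had the narrowest interval of the 10, -0.17 to 0.16. The morpholino libraries of isl1 lay above both wild-type libraries at 14 and 15 hpf, those of hand1 did so at 15 hpf, and those of gata5 lay below at 13 hpf. Of all tested transcripts 18.7% lay above in this way at 14 hpf and 17.3% at 15 hpf, and 16.3%, 23.8% and 12.6% at 12, 13 and 16 hpf. At 13 hpf 26.2% lay below.

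**Figure D2:**
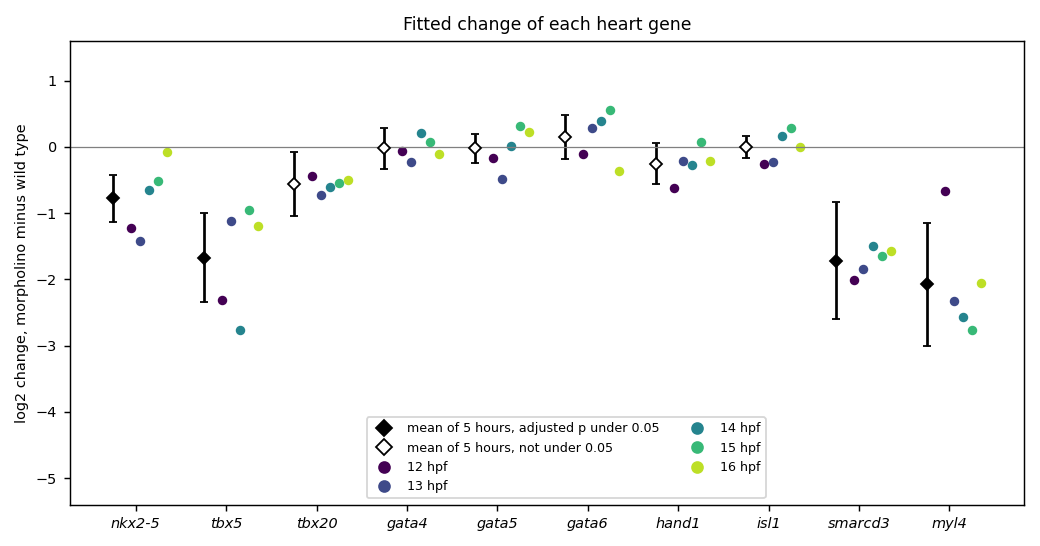
Log2 change of each gene, morpholino minus wild type (vertical axis): diamonds give the mean of the 5 hours with its 95% interval, filled where the adjusted p was under 0.05, and coloured circles give each hour. The tbx5 values are those of the summed counts. The intervals of nkx2-5, tbx5, smarcd3 and myl4 lie below 0 and their diamonds are filled, and the nkx2-5 circles move towards 0 from 13 to 16 hpf.

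Taken hour by hour, no gene was called. EdgeR's quasi-likelihood test called 0 of the 12 transcripts at each hour, and of all transcripts it called 0.0472% at 12 hpf, 0.0884% at 13 hpf, 0.124% at 14 hpf, 0.0943% at 15 hpf and 0.200% at 16 hpf. At an unadjusted p under 0.05 it found 2, 3, 2, 1 and 1 of the 12 transcripts from 12 to 16 hpf, among 1355, 2194, 1420, 1629 and 2066 of all. DESeq2 called 1 of the 12 at 13 hpf, nkx2-5 (log2 -1.41, adjusted p = 0.0267), with 1.70% of all transcripts (266). In the authors' deposited comparison table for each hour, values of these transcripts carried a q-value in 48 cases, of which 1 was under 0.05, that of nkx2-5 at 13 hpf (q = 0.0320). A further 12 values had no q-value. Among these were both tbx5 transcripts at 12, 13 and 14 hpf and smarcd3 at 12 hpf. In the authors' deposited table for that hour 5.82% of all transcripts with a q-value were under 0.05, and tbx20 and myl4 had q-values of 0.0511 and 0.0767. At 12, 14, 15 and 16 hpf the authors' deposited tables had 0.834%, 1.06%, 0.603% and 0.0433% of all transcripts under 0.05 and 0 of these.

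Separation of the arms was common in all transcripts. Counting hours at which all morpholino libraries lay below both wild-type ones, myl4 had 5, the tbx5 sum 4, tbx20 4, nkx2-5 3, smarcd3 3 and gata5 1. Among all tested transcripts 17.5% were so placed at 12 hpf, 26.2% at 13 hpf, 20.3% at 14 hpf, 21.6% at 15 hpf and 19.0% at 16 hpf. These are shares at single hours, and the share apart at several hours was not counted. Libraries with the same number deviated together between hours, so the hours are not independent. Over all 25 libraries together 0 of the 12 transcripts were free of overlap with the morpholino arm lower, and 0.749% of all transcripts were.

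From 12 to 16 hpf myl4 rose in both arms, and nkx2-5 and smarcd3 were called as rising in the morpholino arm. In wild type a straight line through the 5 hours gave myl4 a slope of 1.44 ± 0.28 log2 per hour (SE, edgeR adjusted p = 0.0156), 2.72-fold per hour. It was the only one of the 12 transcripts called, as rising, among 1.19% of all transcripts that rose and 0.996% that fell. Smarcd3 had a wild-type slope of 0.82 ± 0.24 (adjusted p = 0.0713), and was called with a replicate block per arm (0.85, adjusted p = 0.000396), with the shared block (adjusted p = 3e-04), without all of morpholino replicate 3 (0.00393) or its 16 hpf library alone (0.0218), by DESeq2 (0.00705) and on symbol sums (0.0347). Nkx2-5 had a wild-type slope of 0.08 ± 0.09 (adjusted p = 0.651). The myl4 call was lost without wild-type replicate 1 or 2 at 12 hpf (adjusted p = 0.115 and 0.209) or wild-type replicate 1 at 16 hpf (0.137).

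In the morpholino arm 3 transcripts were called as rising and 1 as falling, where 10.4% of all transcripts rose and 7.25% fell. Nkx2-5 rose by 0.40 ± 0.08 log2 per hour (SE, edgeR adjusted p = 0.00438), smarcd3 by 0.93 ± 0.22 (adjusted p = 0.0107) and myl4 by 1.12 ± 0.22 (adjusted p = 0.005). Gata6 fell by 0.23 per hour (SE 0.07, adjusted p = 0.0333), beside a wild-type slope of -0.21 ± 0.09 (adjusted p = 0.193). The gata6 call was lost in 6 of the 25 fits that left out 1 library (adjusted p from 0.0504 to 0.0859). The tbx5 sum rose by 0.64 ± 0.17 log2 per hour (adjusted p = 0.0122), beside a wild-type slope of 0.40 ± 0.16 (adjusted p = 0.133).

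The difference between the slopes was tested directly. EdgeR called 0 of the 12 transcripts and 0% of all transcripts, with 3 of the 12 and 626 of all at an unadjusted p under 0.05. The nkx2-5 slope was higher in the morpholino arm by 0.32 ± 0.12 log2 per hour (SE, unadjusted p = 0.0167, edgeR adjusted p = 1). The gata5 slope was higher by 0.16 ± 0.07 (unadjusted p = 0.044, adjusted p = 1). The narrowing of the nkx2-5 difference with time was not called. The slopes of the arms differed by -0.03 ± 0.11 for gata6 and by 0.24 ± 0.22 for the tbx5 sum, and neither was called.

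**Figure D3:**
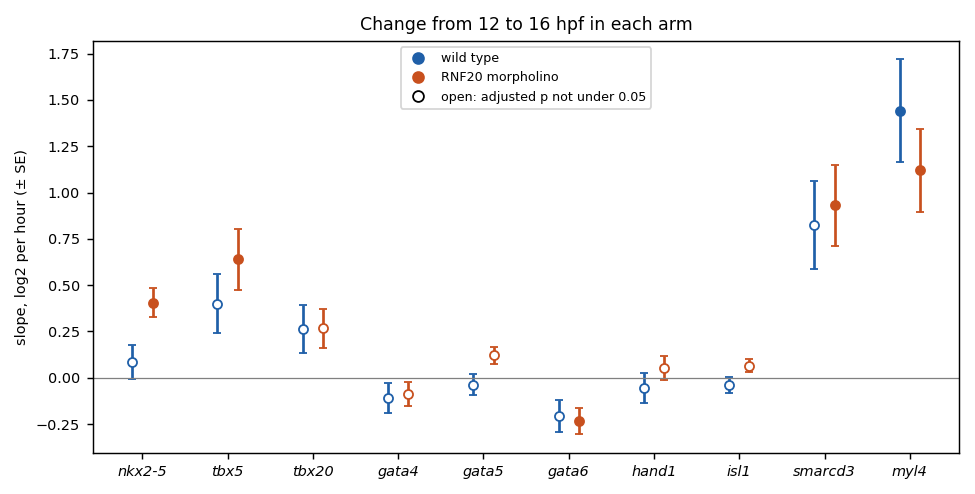
Slope from 12 to 16 hpf in log2 per hour (vertical axis, ± SE) for each gene in wild type (blue) and the morpholino arm (orange), filled where the adjusted p was under 0.05. The tbx5 values are those of the summed counts. The myl4 slopes of 1.44 and 1.12 are the highest in their arms, and the nkx2-5 slopes of 0.08 and 0.40 lie farther apart than their SEs.

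Because several of these genes rise with time, the morpholino arm was also set against younger wild type. A lag of 1 hour leaves out the morpholino libraries of 12 hpf. A lag of 2 hours uses only those of 14 to 16 hpf, so its values compare with matched hours over 14 to 16 hpf. Over 14 to 16 hpf only, 2 of the 12 transcripts were called, those of myl4 (log2 -2.46, edgeR adjusted p = 0.011) and tbx5, with 8.17% of all transcripts. Against wild type 1 hour earlier 0 of the 12 were called, with 5.98% of all and 2 of the 12 at an unadjusted p under 0.05. Against wild type 2 hours earlier 0 were called, with 2.23% of all and 0 of the 12 at an unadjusted p under 0.05.

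Against wild type 2 hours earlier the log2 difference was -0.27 for nkx2-5 (95% interval -0.73 to 0.19), 0.02 for smarcd3 (-0.97 to 1.002) and 0.45 for myl4 (-0.74 to 1.63). At matched hours over 14 to 16 hpf it was -0.42 for nkx2-5 (edgeR adjusted p = 0.223), -1.57 for smarcd3 (0.0628) and -2.46 for myl4 (0.011). For the tbx5 sum the value was -1.17 with a lag of 1 hour (edgeR adjusted p = 0.0443) and -0.76 with a lag of 2 hours (adjusted p = 0.386). At matched hours over 14 to 16 hpf the tbx5 sum was at -1.64 (adjusted p = 0.0128). Of the 4 genes, nkx2-5 and tbx5 kept a negative value against wild type 2 hours earlier, and smarcd3 and myl4 were on the other side of 0. The 95% intervals of all 4 included 0 (tbx5 sum -1.61 to 0.09). No difference between the genes was tested. Whether a delay of the morpholino embryos had a part in the differences at matched hours was not tested.

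Some skeletal muscle markers were also lower in the morpholino arm. The 16 symbols of that list found in the files summed to 3159 to 10726 TPM over the wild-type libraries and 1681 to 7730 TPM over the morpholino libraries, and none of the 16 was at 0 in every library. Of its 20 tested transcripts 5 were called lower and 2 higher, with a median log2 difference of -0.45, beside 13.1% of all transcripts called lower and 13.9% higher. Omitting replicate 1 of 12 hpf left 2 lower ones where it was the wild-type library and 10 where it was the morpholino library. At matched hours over 14 to 16 hpf 1 was lower, and against wild type 2 hours earlier 0 were. Of all transcripts 8.17% and 2.23% were called in either direction in these comparisons. The lower ones were the fast troponins tnni2 (-1.56 ± 0.38, SE, edgeR adjusted p = 0.00749) and tnnc2 (-1.98 ± 0.56), muscle creatine kinase ckm (-1.50 ± 0.33), and actn3 and myl1. The early myogenic factor myf5 (0.55) and the presomitic factor msgn1 (0.72) were higher. The part of skeletal muscle in the myl4 and smarcd3 differences was not tested.

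The genes whose levels most resembled these, as Pearson's r of log2 CPM over the 25 libraries among 10811 symbols, are a description, since the points share hour, arm and depth. For myl4 they were the glutamate receptor grm3 (r = 0.978) and the Z-disc genes myoz2 (0.975) and pdlim3 (0.973). For smarcd3 they were stac3, a protein of skeletal muscle excitation, eef2k and the muscle cadherin cdh15 (0.965, 0.964 and 0.963). For nkx2-5 they were its relative nkx2-6 (0.961), c7 (0.951) and the homeobox factor meis2 (0.947). Among the 10 genes, myl4 and smarcd3 were closest to each other (0.922), followed by myl4 and tbx5 (0.853) and by gata4 and gata6 (0.816).

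For the remaining genes the nearest pattern was spg21 for tbx20 (r = 0.946), plekha4 for gata4 (0.916), osbpl11 for gata5 (0.853), gse1 for gata6 (0.967), gna14 for hand1 (0.832) and araf for isl1 (0.861). Tbx5 averaged under 1 CPM, so no nearest pattern was sought for it, and its correlation with myl4 rests on few counts. Nkx2-5 and gata6 varied in opposite directions (-0.525), as did myl4 and gata6 (-0.589).

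Other factors of the heart lineage were called in both directions. Of 37 tested transcripts of heart factors and cardiac mesoderm outside the 10 genes, 8 were called lower and 5 higher on average, with a median log2 difference of -0.17, beside 13.1% of all transcripts called lower and 13.9% higher. Higher calls numbered 3 without wild-type replicate 1 at 12, 13 or 16 hpf. Against wild type 2 hours earlier 0 were called in either direction, with 2.23% of all transcripts. At matched hours over 14 to 16 hpf 2 were higher and 1 lower, with 8.17% of all transcripts called in either direction. Nkx2-6 was lower (log2 -1.16 ± 0.19, SE, edgeR adjusted p = 0.00053), as were the Notch target hey1 (-0.47 ± 0.08) and the homeobox factor meis1 (-0.58 ± 0.11). The early mesendoderm T-box factor eomes (2.32 ± 0.50), the mesodermal bHLH factor mespb (0.92 ± 0.22) and ets2 (0.69 ± 0.14) were higher.

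Of 22 tested transcripts of heart muscle structure and contraction, 2 were called lower and 1 higher, with a median of -0.35, beside 13.1% of all transcripts called lower and 13.9% higher. The lower count was 0 without wild-type replicate 1 of any 1 hour. It was 1 when morpholino replicate 2 of 12 or 13 hpf was omitted, or replicate 3 of 15 hpf, and 7 when morpholino replicate 1 of 12 hpf was. The higher count was 0 in 16 of the 25 fits that omitted 1 library. The Z-disc gene ldb3 (-1.80 ± 0.58, SE, edgeR adjusted p = 0.03) and the troponin gene tnnc1 (-1.31 ± 0.44) were lower, and csrp3 (1.02 ± 0.37) was higher. The cardiac myosin myh6 was not called, at -0.39 and -0.36 for its 2 transcripts, nor was the troponin gene tnni3, at -0.09. Transcripts of this list that were not called ran from -1.54 (xirp1, edgeR adjusted p = 0.101) to 0.71 (myh15, adjusted p = 0.333).

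Signals that induce or restrain heart formation were mostly higher where called: 12 of 23 tested transcripts were higher and 2 lower, with a median of 0.32. Of all transcripts 13.9% were called higher and 13.1% lower. The higher count was 7 without wild-type replicate 1 at 12, 13, 14 or 15 hpf. It was 5 over 14 to 16 hpf only, 2 against wild type 1 hour earlier and 0 against wild type 2 hours earlier. Over 14 to 16 hpf 8.17% of all transcripts were called in either direction. With lags of 1 and 2 hours the shares were 5.98% and 2.23%. The lower count was 1 without wild-type replicate 1 of any 1 hour. The Wnt antagonist frzb stood at 2.31 ± 0.49 (SE, edgeR adjusted p = 0.00392), the retinoic acid enzyme aldh1a2 at 0.86 ± 0.14 and the noncanonical Wnt ligand wnt11b at 0.60 ± 0.12. Wnt11 (-0.76 ± 0.19) and fgf10 (-1.01 ± 0.32) were lower. Among 31 tested transcripts of BAF subunits, 3 were higher and 3 lower, with a median of 0.10, beside the same shares of all transcripts (13.9% higher and 13.1% lower). Leaving out 1 library changed the higher count to between 0 and 5, by over 1.5 times in 15 of the 25 fits (every wild-type library and every morpholino replicate 3), and it was 0 with the shared replicate block. The smarcd3 paralogs smarcd1 (0.29 ± 0.10, edgeR adjusted p = 0.0468) and smarcd2 (0.28 ± 0.10, adjusted p = 0.0424) were higher near the threshold and arid1b (-1.49 ± 0.29) was lower. A transcript of ss18 was higher (0.92 ± 0.27), and 1 each of phf10 (-0.41 ± 0.06, edgeR adjusted p = 0.000419) and brd9 (-0.34 ± 0.08) were lower. At matched hours over 14 to 16 hpf the higher count of BAF subunits was 0, with 8.17% of all transcripts called in either direction. Against wild type 2 hours earlier 1 of the 31 was called, with 2.23% of all transcripts. It was that phf10 transcript, as lower (-0.51, edgeR adjusted p = 0.00168).

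Some markers of other lineages were also called, where 13.1% of all transcripts were called lower and 13.9% higher. Endoderm markers had 9 of 18 tested transcripts higher and 1 lower (median 0.62), with vegt at 1.94 ± 0.37 (SE, edgeR adjusted p = 0.00186) and pdx1 at -1.75 ± 0.29. Their summed level was 639 to 895 TPM in wild type and 714 to 1420 TPM in the morpholino arm. Blood and endothelium markers had 1 of 11 higher and 4 lower (median -0.17), and neuron and placode markers 2 of 21 higher and 7 lower (median -0.45), a list that shares its tissue with isl1. The lower blood count was 2 without any 1 wild-type library except replicate 2 at 14 hpf, or without morpholino replicate 3 at 13 or 15 hpf. The lower neuron count was 3 or 4 without wild-type replicate 1 of any 1 hour, and the higher count 1 in 12 of the 25 fits that omitted 1 library. The lower endoderm count was 2 or 3 when morpholino replicate 1 of 12 hpf or any 1 morpholino library of 16 hpf was omitted. The higher endoderm count was 5 over 14 to 16 hpf and 4 against wild type 1 hour earlier. Of all transcripts 8.17% and 5.98% were called in either direction in these comparisons. At matched hours over 14 to 16 hpf 0 endoderm and 0 blood transcripts were called lower. Of the neuron and placode transcripts 1 was lower and 1 higher over these hours. Against wild type 2 hours earlier 0 endoderm, blood or neuron transcripts were called, with 2.23% of all transcripts. The part of these lineages in the levels of gata4, gata5, gata6 and isl1 was not tested.

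**Figure D4:**
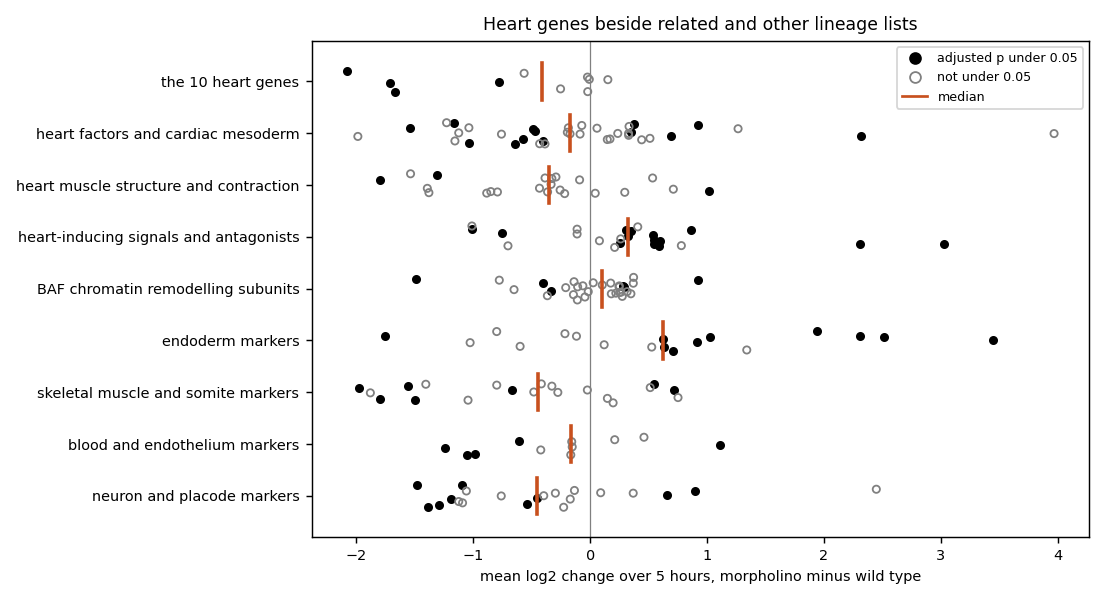
Mean log2 change over the 5 hours, morpholino minus wild type (horizontal axis), for the 10 heart genes (tbx5 as the summed counts) and for each tested transcript of 8 lists, with filled points at an adjusted p under 0.05 and an orange bar at each median. The medians lie between -0.45 for skeletal muscle and for neuron and placode markers and 0.62 for endoderm markers, with the 10 heart genes at -0.41.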

How the data were processed

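The authors' deposited tables give estimated counts and TPM per transcript for each of the 25 libraries, made with kallisto per the submitters' processing notes. Their deposited comparison tables, made with sleuth per those notes, hold p-values, q-values and effects on the natural log scale for each hour. No version, option or build is given in the sources used here. Between 27.0% and 31.4% of the estimated counts per library were not whole, and all were rounded.

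R 4.3.3 was used with edgeR 4.0.16, limma 3.58.1 and DESeq2 1.42.0. Transcripts were filtered by filterByExpr over the 10 groups (16967 of 22891 kept), scaled by TMM and tested with edgeR's quasi-likelihood functions on 1 mean per group, without a block. SE is the log2 change over the root of its F statistic, CPM uses the TMM-scaled totals, and SD is over libraries. P-values were adjusted by Benjamini-Hochberg over all tested transcripts within each comparison, and a call is an adjusted p under 0.05. The scripts were tested on simulated data in which every library was drawn independently. That test does not cover libraries that deviate together by number, as these do.

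Named genes are all transcripts of the 10 symbols, and some of 2 further sets. These sets are the 3 called transcripts per direction with the smallest adjusted p in each list, and the 3 symbols most correlated with each gene at 1 CPM or more (0.5 CPM added before log2). Not every gene of these sets is named, and the blood and neuron lists are given as counts only. A few others (actn3, myl1, myh6, tnni3, xirp1, myh15) were chosen after their values were seen. The genes and lists were chosen with earlier results of these data known. The replicate number was checked for pairing: deviations of wild-type libraries with the same number correlated at 0.405 to 0.611 between hours in 10 of 10 pairs, those of morpholino numbers 1, 2 and 3 at 0.266 to 0.767, 0.0887 to 0.599 and 0.310 to 0.844, and those of the arms at the same hour and number at -0.161 to 0.546, over 0.1 in 6 of 10 pairs. Every wild-type pair was over 0.1, as were 10, 9 and 10 of 10 pairs for morpholino numbers 1, 2 and 3. The number was not taken as pairing the arms, where not every pair was over 0.1. The main fits left the number out, and replicate blocks were run as alternatives. No sequence is printed.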

Additional observations from a re-analysis of the deposited data

How the results depend on the processing

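The average effects of nkx2-5, tbx5, smarcd3 and myl4 stayed called and lower in all 25 fits that left out 1 library, under DESeq2 size factors, DESeq2's Wald test, no filter on low counts, either replicate block and without morpholino replicate 3. Of the 4 member transcripts called on average, 2 were called at 14 to 16 hpf only, 0 against wild type 1 hour earlier, 0 against wild type 2 hours earlier, 1 (nkx2-5) against wild type 1 hour earlier without morpholino replicate 3, and 0 with libraries averaged into 5 series, an alternative chosen after seeing the data, as were the tbx5 sums against earlier wild type. The fit that called nkx2-5 against wild type 1 hour earlier called 3027 of all transcripts. By hour, where 0 were called, a replicate block per arm gave 2, 3, 1, 1 and 2 from 12 to 16 hpf, and at 13 hpf the shared replicate block, DESeq2 and the fit without morpholino replicate 3 gave 1. Of all transcripts the block per arm called 1403, 2582, 1277, 1280 and 1120 from 12 to 16 hpf. At 13 hpf the shared block called 761 of all, DESeq2 266 and the fit without morpholino replicate 3 called 2241. A block per arm removes the spread between series from the error, so its p-values do not cover that spread. For the wild-type slope (1 called), DESeq2, both replicate blocks and symbol sums gave 2, the fit without morpholino replicate 3 gave 5, and leaving out 1 library gave 0 to 3. Of all transcripts DESeq2 called 1521, the shared block 3484, the block per arm 3266 and the fit without morpholino replicate 3 called 6712. Among symbol sums 791 were called, and leaving out 1 library gave 8 to 2114 of all transcripts. For the morpholino slope (4 called), DESeq2 gave 7. Over all transcripts the count called ranged with the alternatives from 0 to 7305 on average (4581 in the text), from 0 to 2582 at single hours (8 to 34 in the text), from 8 to 6712 for the wild-type slope (371), from 1013 to 7509 for the morpholino slope (2996) and from 0 to 16 for the slope difference (0). With libraries averaged into 5 series every list had 0 called in either direction.

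Values that changed sign were mostly near 0. On average, against wild type 2 hours earlier smarcd3 was 0.016, myl4 0.45, gata5 0.093, gata6 -0.22 and isl1 0.092. At 14 to 16 hpf gata4 was 0.061, gata5 0.18 and isl1 0.15. With the replicate block gata5 was 0.023 and isl1 0.020, and without morpholino replicate 3 gata5 was 0.023 and isl1 0.019. Isl1 was 0.0012 with DESeq2 size factors, 0.0024 by DESeq2 and 0.0027 against wild type 1 hour earlier, and without morpholino replicate 3 this last became 0.020 and gata6 -0.11. At 16 hpf nkx2-5 was 0.18 with the replicate block and tbx20 0.0037 without morpholino replicate 3. Without that replicate the morpholino slope was 0.015 for gata4 and -0.045 for hand1, and the slope difference of gata6 was 0.0074. The slope difference of tbx20 was -0.030 with the shared replicate block and -0.033 with a block per arm. Leaving out 1 library gave average effects of -0.081 to 0.054 for gata4, -0.054 to 0.020 for gata5 and -0.040 to 0.028 for isl1, and -0.28 to 0.17 for nkx2-5 at 16 hpf. It gave a morpholino slope of -0.018 to 0.12 for hand1, and slope differences of -0.083 to 0.10 for tbx20, -0.037 to 0.098 for gata4, -0.079 to 0.038 for gata6 and -0.11 to 0.41 for smarcd3. The causes were not tested. Depth limits tbx5 and smarcd3 most, with 8 and 3 morpholino libraries at 3 counts or fewer.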
